A study of Homo sapiens with 17 samples.

Results

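The genes described here are 47 regulators of pre-messenger RNA splicing, measured in ILT3.Fc-exposed Jurkat cells, a human cell line that was derived from an acute T cell leukaemia. They were chosen by symbol: 19 hnRNP proteins, 12 SR and TRA2 proteins, 6 kinases of SR proteins, 6 factors of the 3′ splice site, of U1 or of the spliceosome, and 4 SR-related proteins. All 47 were found among the 25548 symbols of the table. ILT3.Fc is a soluble protein in which the outer domain of ILT3, an inhibitory receptor, is joined to an antibody Fc fragment. The 17 libraries covered 0, 12.5 and 25 µg/ml at 6, 12 and 24 h, with 2 libraries in each of 8 groups and 1 library of untreated cells at 12 h. All groups were the same line in the same medium with serum, and untreated here means 0 µg/ml, since the labels name no control Fc protein. They also do not say whether duplicates were separate cultures, so the spread that p-values measure is that between these samples only, and it may be technical.

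Splicing regulators decide which exons enter a messenger RNA. SR proteins carry a domain rich in arginine and serine and mostly bind exonic enhancers, where they recruit the splicing machinery. Their kinases act in different places: SRPK proteins phosphorylate them mainly in the cytoplasm, which allows import into the nucleus, and CLK proteins act within the nucleus. hnRNP proteins coat new transcripts and often, though not always, oppose SR proteins at the same exon. U2AF proteins mark the 3′ splice site, and LUC7-like proteins associate with the U1 particle at the 5′ splice site. Many of these genes limit their own level by including a so-called poison exon that sends the transcript to nonsense-mediated decay. In T cells the family is known from the splicing of PTPRC, the receptor phosphatase CD45, whose variable exons are repressed by HNRNPL among others.

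Values are FPKM, which divide the fragments of a gene by its length in kilobases and by the total of fragments mapped in the library, and 1 value stood for each gene, so the isoforms and the poison exons were not measured. The FPKM of a library summed to 504363 to 557389, and relative depth lay between 0.674 and 1 of the deepest library, with the absolute depth unknown. Duplicates correlated at 0.9795 to 0.9863 across genes, and 0 pairs of libraries were identical. Lane 4 of the sequencer took the 24 h libraries and replicate 1 at 6 h, and lane 5 took the 12 h libraries and replicate 2 at 6 h. Within lane 4 a comparison over all times thus covers 6 and 24 h, and within lane 5 it covers 6 and 12 h. A pair of libraries stood apart: in replicate 2 of 25 µg/ml at 24 h the deviation from the mean library rose with GC content across genes (Spearman correlation of 0.571), and in replicate 1 of 12.5 µg/ml at 6 h it fell with gene length (-0.601). In the GENCODE annotation an exon of 21 of the 47 genes is overlapped by a gene on the other strand, HNRNPU, HNRNPM, HNRNPA3, U2AF2 and CRNKL1 among them, and pseudogenes are named after 20. Since the strand setting of the counting is not given, reads of such partners cannot be told apart. The label was checked with markers: 11 of 11 T cell genes had a mean FPKM of at least 1 (CD3D at 547.3) and together 1729 to 1975 FPKM in a library, while of 12 genes of other cell types, together 34.4 to 49.4 FPKM, CD79A (39.5) reached 1, and HBB and EPCAM were listed at 0 in every library.

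The 47 genes were abundant. Mean FPKM over the 17 libraries ran from 9.77 for CLK4 to 704.7 for HNRNPA2B1, the gene in place 83 of 12015 by level. The median gene of the group stood at 144.4 FPKM, against 15.1 FPKM over the 12015 genes with a mean of at least 1 FPKM, a filter that all 47 passed, and 33 of the 47 had a mean of at least 100 FPKM. By role the median was highest for hnRNP proteins, at 265.8 FPKM, between HNRNPH2 (13.3) and HNRNPA2B1. It was 132.1 FPKM for SR and TRA2 proteins, between TRA2A (66) and SRSF2 (383.5), and 111.5 FPKM for the splice site and U1 factors, between CRNKL1 (22.0) and U2AF1 (339.4). SR-related proteins had a median of 108.1 FPKM, between SRRM1 (60.7) and SRRM2 (127.9). The kinases were the least abundant role, with a median of 31.6 FPKM between CLK4 and SRPK1 (75.8). Levels varied little: the highest library of a gene held 1.12 to 1.61 times the FPKM of its lowest.

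Exposure to 25 µg/ml was compared with untreated cells over all times, by averaging the differences seen at 6, 12 and 24 h on the log2(FPKM + 1) scale. A moderated test of limma across 12015 genes was used, with p-values adjusted over all of them by the Benjamini-Hochberg method and a call at an adjusted p under 0.05. Of the 47 genes 12 fell, 1 rose and 34 did not pass. Over all genes tested 4% fell and 5.47% rose. An unadjusted p under 0.05 was seen in 22 of the 47, a count given without its share over all genes. The median difference of the 47 genes was -0.05, against 0.02 over all genes tested. In such bulk samples fewer cells of a kind and less RNA per cell cannot be told apart. Among hnRNP proteins 6 of 19 fell (HNRNPH3, HNRNPM, HNRNPA0, HNRNPU, HNRNPD and RBMX), and so did 1 of 12 SR and TRA2 proteins (TRA2B), 1 of 6 kinases (SRPK1), 3 of 6 splice site, U1 and spliceosome factors (U2AF2, LUC7L2 and CRNKL1) and 1 of 4 SR-related proteins (RBM39). Within lane 4 alone the count was 1, and within lane 5 alone it was 0. Without the 24 h libraries it was 2 (HNRNPH3 and U2AF2). Of the 11 T cell markers CD28 rose over all times (0.14, adjusted p = 0.0103) and 0 fell.

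HNRNPH3, of the hnRNP H and F family that binds runs of G, changed most. At 6 h HNRNPH3 stood at 172.1 and 166.8 FPKM in untreated cells, 164.1 and 156.7 under 12.5 µg/ml, and 139.5 and 146.0 under 25 µg/ml. At 12 h HNRNPH3 measured 172.6 FPKM in the single untreated library, 147.5 and 156.2 at 12.5 µg/ml, and 137.3 and 135.5 at 25 µg/ml. At 24 h the HNRNPH3 values were 157.5 and 154.3 FPKM in untreated cells, 136.7 and 134.35 at 12.5 µg/ml, and 119.8 and 111.5 at 25 µg/ml. At each time the libraries stood in the order of dose, and no groups overlapped. HNRNPH3 fell by 0.34 on the log2 scale over all times (SE 0.0283, limma adjusted p = 0.000127), which is a change of -20.8% in FPKM + 1. The difference was -0.36 within lane 4 (mean of 6 and 24 h) and -0.26 within lane 5 (mean of 6 and 12 h), where it did not pass. It was -0.29 without the 24 h libraries (adjusted p = 0.0366), and the call held with each library left out in turn. An exon of HNRNPH3 is overlapped by RUFY2 on the other strand.

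SRPK1, the kinase that prepares SR proteins for import, was the 1 kinase that fell over all times. SRPK1 at 6 h stood at 75.4 and 77.5 FPKM in untreated cells, 72.3 and 73.7 at 12.5 µg/ml, and 71.8 and 75.7 at 25 µg/ml. SRPK1 at 12 h was at 82.7 FPKM in the untreated library, 77.3 and 76.9 at 12.5 µg/ml, and 77.4 and 71.8 at 25 µg/ml. SRPK1 at 24 h was at 83.0 and 86.6 FPKM in untreated cells, 74.4 and 77.3 at 12.5 µg/ml, and 67.2 and 66.8 at 25 µg/ml. All 3 doses stood apart in order at 24 h, while at 12 h both doses of ILT3.Fc lay below the untreated library and overlapped each other, and at 6 h the highest and lowest dose overlapped. SRPK1 fell by 0.18 over all times (SE 0.0270, limma adjusted p = 0.00306), and without the 24 h libraries the value was -0.10 (adjusted p = 0.264). It was -0.20 within lane 4 (adjusted p = 0.107) and -0.09 within lane 5 (adjusted p = 0.299). Its exons are overlapped by LHFPL5 on the other strand.

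HNRNPA3, a relative of HNRNPA1 and HNRNPA2B1, was the 1 gene of the 47 that rose over all times. HNRNPA3 at 6 h stood at 172.85 and 176.85 FPKM in untreated cells, 190.35 and 187.6 at 12.5 µg/ml, and 193.6 and 196.8 at 25 µg/ml. HNRNPA3 at 12 h was at 179.7 FPKM in the untreated library, 190.6 and 185.55 at 12.5 µg/ml, and 197.25 and 192.9 at 25 µg/ml. HNRNPA3 at 24 h was at 167.3 and 172.5 FPKM in untreated cells, 173.3 and 180.6 at 12.5 µg/ml, and 179.0 and 169.0 at 25 µg/ml. The doses stood apart in order at 6 and 12 h and overlapped at 24 h. HNRNPA3 rose by 0.10 (SE 0.0242, limma adjusted p = 0.0243), and the call was lost after centring each library on its median (0.08, adjusted p = 0.106), without the 12 h libraries (0.10, adjusted p = 0.119), without the 24 h libraries (0.14, adjusted p = 0.0937) and with each of 6 libraries left out singly. These were both of untreated cells at 6 h, replicate 2 of 25 µg/ml at 6 h, the untreated library at 12 h, replicate 1 of 25 µg/ml at 12 h and replicate 1 of untreated cells at 24 h. The difference was 0.10 within lane 4 (mean of 6 and 24 h) and 0.14 within lane 5 (mean of 6 and 12 h), and passed in neither. The annotation names 16 pseudogenes after HNRNPA3, so its reads may be split with near-identical copies.

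**Figure D1:**
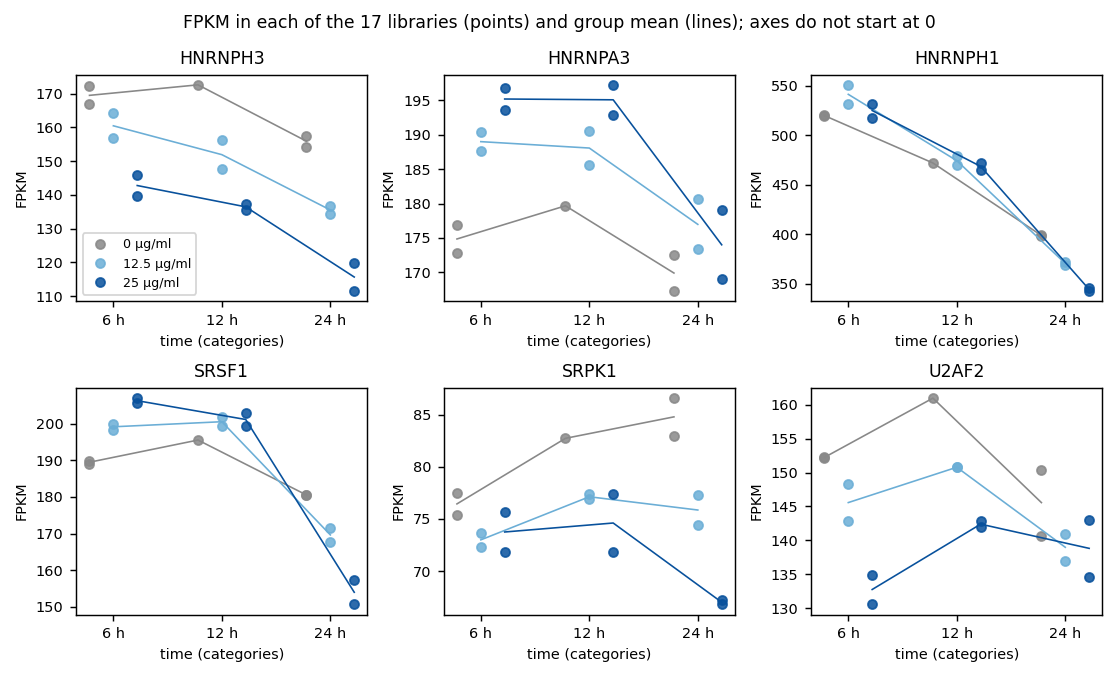
FPKM of 6 genes (vertical axis) in each of the 17 libraries, by time (horizontal axis, as categories) and by dose (0 µg/ml grey, 12.5 µg/ml light blue, 25 µg/ml dark blue), with lines through the group means and axes that do not start at 0. HNRNPH3 stood in the order of dose at each time, with 119.8 and 111.5 FPKM at 25 µg/ml and 157.5 and 154.3 FPKM in untreated cells at 24 h, while SRSF1 had the highest dose on top at 6 h and at the bottom at 24 h.

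The promoters of these 3 genes are shown because they carry the largest fall, the fall of the kinase and the rise. Sequences are RefSeq windows on GRCh38.p14, from 250 bases before to 50 after an annotated start, printed on the gene's strand with matches to the CCAAT box, the GC box and the E-box, on either strand, in capitals. HNRNPH3 has 3 annotated starts and the most upstream is shown (chr10:68331443-68331742, plus strand). SRPK1 lies at chr6:35921049-35921348 on the minus strand, and HNRNPA3 at chr2:177212544-177212843 on the plus strand.
HNRNPH3: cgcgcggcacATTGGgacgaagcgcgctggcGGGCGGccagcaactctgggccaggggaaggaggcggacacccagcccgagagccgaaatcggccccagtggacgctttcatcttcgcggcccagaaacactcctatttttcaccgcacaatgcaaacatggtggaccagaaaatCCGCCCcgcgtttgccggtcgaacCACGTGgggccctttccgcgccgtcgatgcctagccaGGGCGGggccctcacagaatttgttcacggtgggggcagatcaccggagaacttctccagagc
SRPK1: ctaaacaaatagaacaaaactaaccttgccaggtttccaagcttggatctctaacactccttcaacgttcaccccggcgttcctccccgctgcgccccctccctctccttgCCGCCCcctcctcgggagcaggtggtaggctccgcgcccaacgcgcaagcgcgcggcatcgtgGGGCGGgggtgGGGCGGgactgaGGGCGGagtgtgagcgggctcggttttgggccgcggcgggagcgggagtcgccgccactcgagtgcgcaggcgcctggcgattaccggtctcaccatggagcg
HNRNPA3: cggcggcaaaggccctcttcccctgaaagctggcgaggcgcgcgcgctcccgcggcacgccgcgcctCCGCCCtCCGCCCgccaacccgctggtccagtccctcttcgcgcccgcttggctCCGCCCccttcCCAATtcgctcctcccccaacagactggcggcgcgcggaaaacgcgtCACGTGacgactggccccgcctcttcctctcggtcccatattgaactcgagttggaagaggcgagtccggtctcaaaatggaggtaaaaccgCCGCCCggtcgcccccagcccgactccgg
The HNRNPH3 window held 1 CCAAT box, 3 GC boxes and 1 E-box, the SRPK1 window 0, 4 and 0, and the HNRNPA3 window 1, 4 and 1. Promoter entries were found for 43 of the 47 genes, with 64 windows among them. The CCAAT box (CCAAT, searched on both strands) stood in 37.5% of the 64 windows, against 35.3% of the windows of genes tested and 34.6% of all 35116 windows. The GC box (GGGCGG, searched on both strands) stood in 57.8% of the 64 windows, against 66.8% and 45.0%. The E-box (CACGTG, its own complement) stood in 12.5% of them, against 9.68% and 7.26%. The printed windows of a gene that fell and of the gene that rose thus both held all 3 motifs. Of the other HNRNPH3 windows, the one that begins at 68331814 held only the GC box, and the one at 68332563 held none of the 3. A match describes letters and no binding.

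The other falls over all times were smaller, between -9.68% (U2AF2) and -5.74% (LUC7L2) in FPKM + 1. HNRNPM, a repressor and activator of exons, fell by 0.15 (SE 0.0224, limma adjusted p = 0.00312). HNRNPM at 6 h stood at 317.0 and 314.65 FPKM in untreated cells, 339.2 and 322.9 at 12.5 µg/ml, and 298.1 and 305.8 at 25 µg/ml. HNRNPM at 12 h was at 327.35 FPKM in the untreated library, 305.6 and 308.0 at 12.5 µg/ml, and 297.2 and 287.8 at 25 µg/ml. HNRNPM at 24 h was at 311.1 and 303.8 FPKM in untreated cells, 285.6 and 280.5 at 12.5 µg/ml, and 265.2 and 265.0 at 25 µg/ml. HNRNPM at 25 µg/ml lay below untreated cells at each time, while at 6 h the lower dose lay above them. HNRNPU, a nuclear matrix and chromatin RNA-binding protein, fell by 0.14 (SE 0.0239, adjusted p = 0.00525). HNRNPU at 6 h stood at 245.4 and 248.1 FPKM in untreated cells, 237.3 and 245.1 at 12.5 µg/ml, and 237.3 and 240.0 at 25 µg/ml. HNRNPU at 12 h was at 251.65 FPKM in the untreated library, 240.0 and 234.0 at 12.5 µg/ml, and 232.7 and 221.7 at 25 µg/ml. HNRNPU at 24 h was at 241.75 and 240.0 FPKM in untreated cells, 227.3 and 229.4 at 12.5 µg/ml, and 210.9 and 199.5 at 25 µg/ml. The HNRNPU groups of 25 and 0 µg/ml did not overlap at any time, and their gap was smallest at 6 h. HNRNPA0, which binds AU-rich messages, fell by 0.12 (SE 0.0197, adjusted p = 0.00499). HNRNPA0 at 6 h stood at 123.6 and 120.0 FPKM in untreated cells, 123.1 and 119.8 at 12.5 µg/ml, and 113.8 and 114.3 at 25 µg/ml. HNRNPA0 at 12 h was at 120.0 FPKM in the untreated library, 115.3 and 112.3 at 12.5 µg/ml, and 110.4 and 109.4 at 25 µg/ml. HNRNPA0 at 24 h was at 121.3 and 121.5 FPKM in untreated cells, 112.7 and 113.3 at 12.5 µg/ml, and 108.8 and 111.9 at 25 µg/ml. Here too 25 µg/ml lay below untreated cells at each time. With 1 or 2 libraries in a group such separation was common. At 6 h 20 of the 47 genes lay lower and 17 higher at 25 µg/ml without overlap, and at 12 h 22 lay lower and 13 higher. No such shares over all genes are given here for 6 and 12 h, so these counts do not set the 47 genes apart.

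U2AF2, the U2AF subunit that binds the polypyrimidine tract, fell by 0.15 (SE 0.0263, limma adjusted p = 0.00718). U2AF2 at 6 h stood at 152.3 and 152.2 FPKM in untreated cells, 148.3 and 142.9 at 12.5 µg/ml, and 134.9 and 130.6 at 25 µg/ml. U2AF2 at 12 h was at 161.0 FPKM in the untreated library, 150.8 and 150.8 at 12.5 µg/ml, and 142.8 and 142.0 at 25 µg/ml. U2AF2 at 24 h was at 150.45 and 140.7 FPKM in untreated cells, 140.95 and 137.0 at 12.5 µg/ml, and 134.65 and 143.0 at 25 µg/ml. The U2AF2 libraries stood in the order of dose at 6 and 12 h, and at 24 h the groups overlapped. Its partner U2AF1, which reads the AG of the 3′ splice site, stood at -0.01 and did not pass. HNRNPH3, SRPK1, HNRNPM, HNRNPU, HNRNPA0 and U2AF2 kept their calls over all times with each of the 17 libraries left out singly. Without the 24 h libraries HNRNPM stood at -0.11 (adjusted p = 0.182), HNRNPU at -0.10 (adjusted p = 0.212) and HNRNPA0 at -0.11 (adjusted p = 0.135), none of which passed, and U2AF2 at -0.19 (adjusted p = 0.0462), which passed. Without the 12 h libraries U2AF2 stood at -0.13 (adjusted p = 0.0692) and did not pass. Its call was also lost within lane 4 (-0.12) and within lane 5 (-0.20).

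CRNKL1, a scaffold of the spliceosome, fell by 0.13 (SE 0.0299, limma adjusted p = 0.0232). CRNKL1 at 6 h stood at 23.2 and 23.3 FPKM in untreated cells, 22.5 and 22.0 at 12.5 µg/ml, and 21.3 and 21.6 at 25 µg/ml. CRNKL1 at 12 h was at 23.0 FPKM in the untreated library, 22.5 and 21.5 at 12.5 µg/ml, and 22.8 and 20.5 at 25 µg/ml. CRNKL1 at 24 h was at 23.0 and 23.2 FPKM in untreated cells, 22.1 and 22.0 at 12.5 µg/ml, and 20.5 and 19.7 at 25 µg/ml. The U1-associated LUC7L2 fell by 0.09 (SE 0.0202, adjusted p = 0.0252). LUC7L2 at 6 h stood at 89.2 and 88.9 FPKM in untreated cells, 86.6 and 82.95 at 12.5 µg/ml, and 85.6 and 85.4 at 25 µg/ml. LUC7L2 at 12 h was at 90.9 FPKM in the untreated library, 87.4 and 86.7 at 12.5 µg/ml, and 85.1 and 85.8 at 25 µg/ml. LUC7L2 at 24 h was at 86.9 and 87.4 FPKM in untreated cells, 81.5 and 81.2 at 12.5 µg/ml, and 82.4 and 79.0 at 25 µg/ml. RBM39, a relative of U2AF2, fell by 0.09 (SE 0.0228, adjusted p = 0.0305). RBM39 at 6 h stood at 121.6 and 119.3 FPKM in untreated cells, 123.4 and 117.2 at 12.5 µg/ml, and 115.0 and 117.2 at 25 µg/ml. RBM39 at 12 h was at 132.2 FPKM in the untreated library, 128.95 and 134.5 at 12.5 µg/ml, and 127.1 and 129.2 at 25 µg/ml. RBM39 at 24 h was at 126.4 and 128.2 FPKM in untreated cells, 114.6 and 118.2 at 12.5 µg/ml, and 113.0 and 111.7 at 25 µg/ml. In these 3 genes 25 µg/ml lay below untreated cells at each time, by a margin that was narrow at 12 h for CRNKL1.

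TRA2B, which binds purine-rich enhancers, fell by 0.12 (SE 0.0310, limma adjusted p = 0.0347). TRA2B at 6 h stood at 112.8 and 116.1 FPKM in untreated cells, 124.6 and 110.0 at 12.5 µg/ml, and 111.25 and 109.2 at 25 µg/ml. TRA2B at 12 h was at 106.85 FPKM in the untreated library, 103.95 and 103.9 at 12.5 µg/ml, and 102.5 and 102.7 at 25 µg/ml. TRA2B at 24 h was at 106.6 and 106.9 FPKM in untreated cells, 95.4 and 99.6 at 12.5 µg/ml, and 90.2 and 89.1 at 25 µg/ml. HNRNPD, which directs decay of AU-rich messages, fell by 0.12 (SE 0.0309, adjusted p = 0.0355). HNRNPD at 6 h stood at 427.7 and 439.3 FPKM in untreated cells, 469.8 and 424.5 at 12.5 µg/ml, and 427.3 and 422.2 at 25 µg/ml. HNRNPD at 12 h was at 426.6 FPKM in the untreated library, 406.05 and 402.4 at 12.5 µg/ml, and 399.9 and 378.7 at 25 µg/ml. HNRNPD at 24 h was at 401.3 and 404.4 FPKM in untreated cells, 375.4 and 380.3 at 12.5 µg/ml, and 360.3 and 342.7 at 25 µg/ml. In both genes replicate 1 of 12.5 µg/ml at 6 h was the highest library of all. RBMX, also called hnRNP G, fell by 0.09 (SE 0.0241, adjusted p = 0.0435), and its groups of 25 and 0 µg/ml overlapped at 12 h.

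Each of CRNKL1, LUC7L2, RBM39, TRA2B, HNRNPD and RBMX lost its call over all times with at least 7 of the 17 libraries left out singly. Without the 24 h libraries TRA2B stood at -0.06, RBM39 and RBMX at -0.05, LUC7L2 at -0.07, HNRNPD at -0.08 and CRNKL1 at -0.10, and none of these 6 passed. The count of calls over all times was 6 without either untreated 6 h library, without replicate 2 of 25 µg/ml at 6 h or without replicate 1 of untreated cells at 24 h. It was 7 without replicate 1 of 25 µg/ml at 6 h or replicate 2 of untreated cells at 24 h, and 8 without either 25 µg/ml library at 12 h or replicate 2 of 25 µg/ml at 24 h.

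In the values as deposited, more of the 47 genes fell at 24 h than over all times. After a correction for GC content and gene length, described below, 13 of the 47 genes fell at 24 h and 15 over all times. Of all genes that could be corrected, 10.6% fell at 24 h and 9.91% over all times. Such counts do not rank the breadth of the falls, since the tests differ in precision. Before correction the SE over the 47 genes was 0.0317 to 0.126 at 24 h and 0.0197 to 0.0784 over all times. As deposited, 24 of the 47 genes fell at 25 µg/ml at 24 h, 0 rose and 23 did not pass, against 5.76% of all genes tested that fell and 10.7% that rose. The median difference was -0.14, against 0.04 over all genes. Among hnRNP proteins 12 of 19 fell: HNRNPA0, HNRNPA1, HNRNPA2B1, HNRNPC, HNRNPD, HNRNPH1, HNRNPH3, HNRNPK, HNRNPM, HNRNPR, HNRNPU and RBMX. Among SR and TRA2 proteins SRSF1, SRSF3, SRSF5, SRSF11 and TRA2B fell (5 of 12). SRPK1, CLK1 and CLK4 fell among the 6 kinases, LUC7L2, LUC7L3 and CRNKL1 among the 6 splice site, U1 and spliceosome factors, and RBM39 among the 4 SR-related proteins. The falls lay between 0.11 (LUC7L2) and 0.43 (HNRNPH3), and differences of the genes that did not pass lay between -0.21 (HNRNPH2) and 0.10 (PTBP1). Of the 12 genes that fell over all times 11 are among these 24, and U2AF2 is the other. Of the 11 T cell markers 3 rose at 25 µg/ml at 24 h (LAT by 0.28, CD28 by 0.24 and CD5 by 0.21, limma adjusted p of 0.00571 to 0.0109) and 0 fell, with a median of 0.11, and CD79A stood at 0.17 and did not pass. The part of these markers in the fall was not tested.

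**Figure D2:**
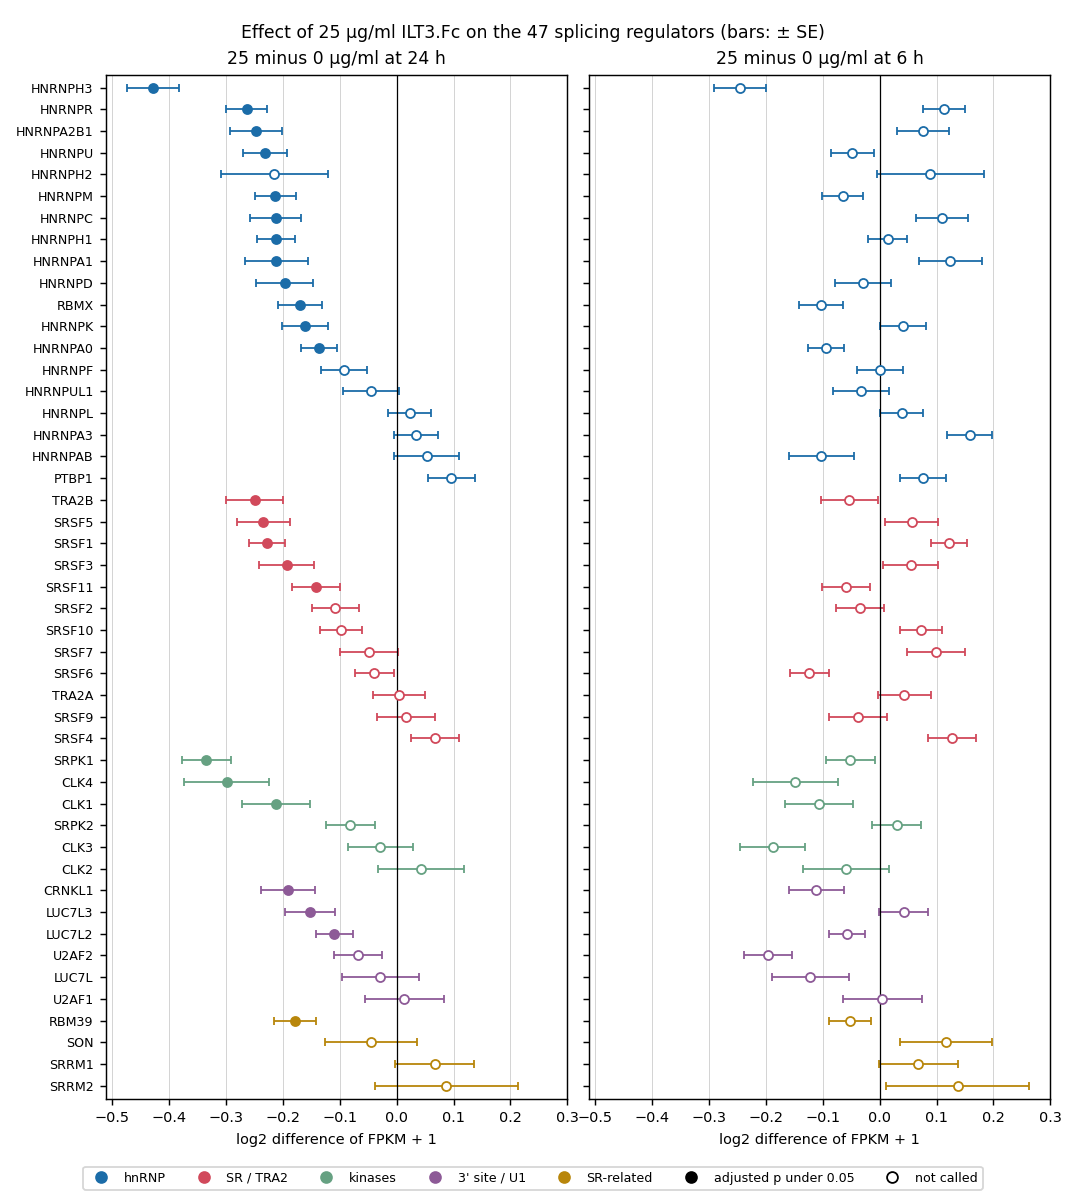
Difference between 25 and 0 µg/ml on the log2(FPKM + 1) scale (horizontal axis) for each of the 47 genes (rows, by role), at 24 h on the left and at 6 h on the right, with bars of ± SE and filled points for an adjusted p under 0.05. At 24 h 24 points are filled, from -0.43 for HNRNPH3 to -0.11 for LUC7L2, and at 6 h 0 are filled.

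HNRNPH3 led at 24 h with a fall of 0.43 (SE 0.0454, limma adjusted p = 0.000388), and SRPK1 followed with 0.33 (SE 0.0433, adjusted p = 0.00104). HNRNPR, a regulator of message processing and stability, fell by 0.26 (SE 0.0366, adjusted p = 0.00142), with 186.0 and 178.9 FPKM at 25 µg/ml and 217.9 and 220.6 FPKM in untreated cells. SRSF1, the founding SR protein, fell by 0.23 (SE 0.0318, adjusted p = 0.00143). SRSF1 stood at 157.25 and 150.7 FPKM at 25 µg/ml, against 180.5 and 180.55 FPKM in untreated cells. HNRNPH1, which like HNRNPH3 binds G runs, fell by 0.21 (SE 0.0339, adjusted p = 0.00299), with 342.6 and 345.6 FPKM at 25 µg/ml and 399.0 and 398.3 FPKM in untreated cells. HNRNPU fell by 0.23 (SE 0.0384, adjusted p = 0.00355). In each of these genes the treated and untreated libraries at 24 h did not overlap.

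The most abundant gene of the group, HNRNPA2B1, which binds and sorts messages, fell by 0.25 at 24 h (SE 0.0457, limma adjusted p = 0.00619). HNRNPA2B1 stood at 628.3 and 608.1 FPKM at 25 µg/ml, against 743.5 and 724.3 FPKM in untreated cells. HNRNPC, which binds runs of U on new transcripts, fell by 0.21 (SE 0.0454, adjusted p = 0.0113), with 321.9 and 304.5 FPKM at 25 µg/ml and 366.6 and 359.3 FPKM untreated. HNRNPA1, a common repressor of exons, fell by 0.21 (SE 0.0554, adjusted p = 0.0266), with 269.5 and 253.3 FPKM at 25 µg/ml and 301.1 and 304.3 FPKM untreated. Pseudogenes are named after both: 74 for HNRNPA1 and 9 for HNRNPC. Among SR proteins SRSF5 fell by 0.23 (SE 0.0461, adjusted p = 0.0079), with 116.35 and 126.6 FPKM at 25 µg/ml, against 141.2 and 144.8 FPKM untreated. TRA2B fell by 0.25 (SE 0.0497, adjusted p = 0.0084), with 90.2 and 89.1 FPKM, against 106.6 and 106.9 FPKM. Among the nuclear kinases CLK4 fell by 0.30 (SE 0.0746, adjusted p = 0.0219), with 8.85 and 8.43 FPKM at 25 µg/ml and 11.1 and 10.6 FPKM untreated. CLK1 fell by 0.21 (SE 0.0598, adjusted p = 0.0353), while CLK2 (0.04), CLK3 (-0.03) and SRPK2 (-0.08) did not pass.

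PTBP1, an exon repressor with the highest GC content of the 47 genes (61.7%), stood above untreated cells at 24 h as deposited, with 246.4 and 256.6 FPKM at 25 µg/ml against 238.6 and 231.9 FPKM untreated, a difference of 0.10 that did not pass. After each library was corrected for GC content and gene length it was -0.07 (limma adjusted p = 0.311), with the sign turned. At 24 h the libraries of 25 µg/ml lay below those of untreated cells without overlap in 32 of the 47 genes, against 23.1% of all genes tested. They lay above in 4 (SRSF4, SRSF9, PTBP1 and SRRM1), against 37.5% of all genes. All 3 doses stood apart in falling order in 19 of the 47 genes, against 6.85% of all genes, and in rising order in 2 (PTBP1 and SRRM1), against 10.9%.

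HNRNPH3, SRPK1, HNRNPR, SRSF1, HNRNPH1, HNRNPU and HNRNPM kept their calls at 24 h with each of the 17 libraries left out singly. The count of 24 was 8 without replicate 2 of untreated cells at 24 h, 9 without replicate 2 of 25 µg/ml at 24 h and 11 without replicate 1 of untreated cells at 24 h. Within lane 4, which held every 24 h library, it was 14. Lane 5 held none, so no such value exists there.

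GC content moved with the difference at 24 h. The longest transcripts of the 47 genes had a median GC content of 41.6%, against 48.1% over the 10210 genes tested that could be matched. Across genes, which share the same 4 libraries and are not independent, the difference at 24 h rose with GC content (Spearman correlation of 0.488 over the 47 genes and 0.449 over the 10210). Besides replicate 2 of 25 µg/ml, replicate 2 of untreated cells at 24 h deviated with GC content, in the other direction (-0.376). After each library was corrected for GC content and gene length, 13 of the 47 genes fell at 24 h and 0 rose, against 10.6% of genes that fell and 8.73% that rose. Among genes that did not pass, the sign turned below 0 for HNRNPAB, HNRNPL, CLK2 (-0.02), PTBP1 and SRRM2. Of the 13, 10 were among the 24: HNRNPA1, HNRNPH3, HNRNPK, HNRNPM, SRSF1, SRSF5, TRA2B, SRPK1, RBM39 and CRNKL1. HNRNPF, SRSF2 and U2AF2 fell only after the correction. The other 14 of the 24 did not pass, among them HNRNPR (-0.19, adjusted p = 0.118), HNRNPU (-0.18, adjusted p = 0.119), HNRNPH1 (-0.16, adjusted p = 0.0793), HNRNPA2B1 (-0.22, adjusted p = 0.0535) and HNRNPC (-0.19, adjusted p = 0.0541). HNRNPH3 stood at -0.42 (adjusted p = 7.54e-05), SRPK1 at -0.35 (adjusted p = 0.000168), HNRNPM at -0.30 (adjusted p = 0.000358) and SRSF1 at -0.21 (adjusted p = 0.000201). Over all times 15 genes fell after the correction, against 9.91% of all genes, and the 12 that fell without it were among them.

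**Figure D3:**
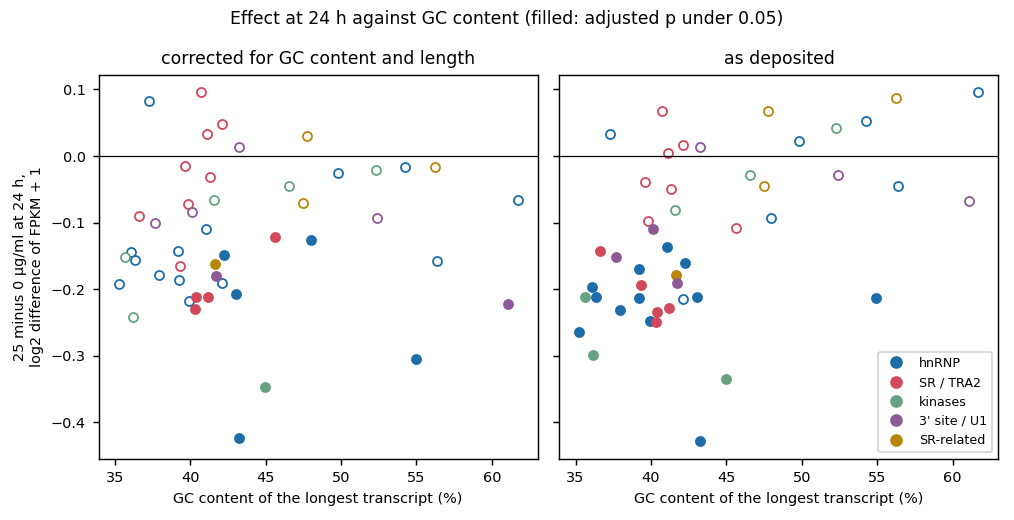
Difference between 25 and 0 µg/ml at 24 h on the log2(FPKM + 1) scale (vertical axis) against the GC content of the longest transcript in percent (horizontal axis) for the 47 genes, after correction of each library for GC content and length on the left and as deposited on the right, with filled points for an adjusted p under 0.05. As deposited 24 genes are filled, with a median GC content of 40.0% against 46.5% in the genes that did not pass, and after correction 13 are filled, with HNRNPH3 lowest at -0.42.

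At 6 h 0 of the 47 genes passed, against 0.225% of all genes, and the median difference was 0.001. An unadjusted p under 0.05 by limma was seen in 13, a count given without its share over all genes. Differences ran from -0.25 for HNRNPH3 (SE 0.0454, adjusted p = 0.0744) to 0.16 for HNRNPA3 (SE 0.0388, adjusted p = 0.185). At 12 h, with 1 untreated library, 0 passed, against 0.0499% of all genes. There 8 had an unadjusted p under 0.05, again without a share over all genes. Differences at 12 h ran from -0.34 for HNRNPH3 (SE 0.0556, adjusted p = 0.075) to 0.12 for HNRNPA3, and the SE of a gene reached 0.154. Of the 24 genes that fell at 24 h, 10 had a positive difference at 6 h and 7 at 12 h. A difference below 0 at all 3 times was seen in 16 of the 47 genes, and one above 0 in 6, with no such share over all genes given here. Taken singly, 23, 29 and 36 of the 47 genes were below 0 at 6, 12 and 24 h. Of all genes tested 52%, 44.1% and 40.8% were. All 3 doses stood apart in falling order at 6 h in HNRNPH3, U2AF2 and CRNKL1 (3 of 47 genes, against 1.81% of all genes) and in rising order in HNRNPA3 and SRSF1 (2 of 47, against 1.23%). At 12 h the order was falling in 9 of 47 genes, against 6.62% of all genes, and rising in HNRNPA3, SRPK2 and CLK3 (3 of 47, against 9.01%). The 3 comparisons by time use separate libraries.

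Whether the effect of 25 µg/ml differed between 24 and 6 h was tested as an interaction. The effect was lower at 24 h in 8 of the 47 genes and higher in 0, against 0.949% and 2.35% of all genes tested. SRSF1 had the clearest difference, of -0.35 (SE 0.0449, limma adjusted p = 0.013). SRSF1 at 6 h stood at 205.5 and 206.9 FPKM at 25 µg/ml, against 189.8 and 189.1 FPKM in untreated cells, above them, whereas at 24 h it lay below them. HNRNPR followed with -0.38 (SE 0.0518, adjusted p = 0.013), and at 6 h it was at 233.0 and 235.5 FPKM at 25 µg/ml, against 217.85 and 215.35 FPKM untreated. HNRNPC (-0.32), HNRNPA2B1 (-0.32), HNRNPH1 (-0.23), SRPK1 (-0.28), SRSF5 (-0.29) and HNRNPA1 (-0.34) also passed, with adjusted p of 0.0283 to 0.0456. These 8 calls depended on single libraries: 0 remained without replicate 2 of untreated cells or of 25 µg/ml at 6 h, and 1 without replicate 1 of untreated cells at 6 h or replicate 2 of 25 µg/ml at 24 h. The count was 2 without either untreated library at 24 h or replicate 1 of 25 µg/ml at 6 h, 3 without either 25 µg/ml library at 12 h, 4 without either 12.5 µg/ml library at 12 h and 5 without either at 24 h. Without either 12.5 µg/ml library at 6 h it was 16, a count given without its share over all genes. Within lane 4 it was 0. After the same GC and length correction it was 5, against 2.02% of all genes, with HNRNPA1, SRSF1 and SRPK1 among the 8. HNRNPH3, with -0.18 (SE 0.0642, adjusted p = 0.134), did not pass.

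The lower dose gave 0 calls among the 47 genes over all times, against 0.283% of all genes. An unadjusted p under 0.05 by limma was seen in 10, a count given without its share over all genes. HNRNPH3 stood at -0.15 (SE 0.0283, adjusted p = 0.0636) and SRPK1 at -0.11 (SE 0.0270, adjusted p = 0.155). After correction for GC content and length HNRNPH3, SRPK1, U2AF2 and LUC7L2 fell, 4 genes, against 1.3% of all genes. Without replicate 2 of 12.5 µg/ml at 6 h the count was 6, and without replicate 1 of that group it was 1, both given without a share over all genes. The higher dose was then set against the lower. HNRNPH3 fell by 0.18 (SE 0.0262, adjusted p = 0.0185) and no other of the 47 genes passed, against 0.216% of all genes that fell. That call was lost within lane 4 (-0.23, adjusted p = 0.0879), within lane 5 (-0.13, adjusted p = 0.529), without the 12 h libraries (-0.20, adjusted p = 0.204), without the 24 h libraries (-0.16, adjusted p = 0.434) and with 8 of 17 libraries left out singly. The libraries whose absence ended it were both of 25 µg/ml at 6 h, both of 25 µg/ml at 12 h, replicate 2 of 12.5 µg/ml at 12 h, both of 12.5 µg/ml at 24 h and replicate 2 of 25 µg/ml at 24 h. Without replicate 2 of 12.5 µg/ml at 6 h the count was 17, also without a share over all genes. Against untreated cells, which both comparisons with 0 µg/ml share, the median difference of the 47 genes at 24 h was -0.07 at 12.5 µg/ml and -0.14 at 25 µg/ml, and 40 and 36 of the 47 genes were below 0. Of all genes tested 40.8% were below 0 at 25 µg/ml at 24 h, and the share at 12.5 µg/ml is not given here.

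Times were compared as the mean of the differences at the 3 doses, so libraries with ILT3.Fc enter beside untreated ones. In untreated cells alone the median difference between 24 and 6 h was -0.02 over the 47 genes and -0.02 over all genes tested. Between 24 and 6 h 26 of the 47 genes fell and 3 rose, against 13.4% and 11.8% of all genes tested, with a median of -0.10 against -0.001 over all genes. Among hnRNP proteins 14 of 19 fell, and among SR and TRA2 proteins 9 of 12 fell and SRSF4 rose. CLK2 fell and CLK3 rose among the kinases, LUC7L2 and LUC7L3 fell, and SRRM1, a coactivator at exonic enhancers, rose. HNRNPH1 fell most, by 0.51 (SE 0.0196, limma adjusted p = 3.55e-07). At 25 µg/ml HNRNPH1 stood at 342.6 and 345.6 FPKM at 24 h, against 517.9 and 532.0 FPKM at 6 h, and in untreated cells at 399.0 and 398.3 FPKM at 24 h, against 519.2 and 520.4 FPKM at 6 h. The 12 h libraries lay between, from 464.9 to 478.6 FPKM. HNRNPA1 fell by 0.31 (SE 0.0320, adjusted p = 0.000141).

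SRSF6, an enhancer-binding SR protein, fell by 0.28 between 24 and 6 h (SE 0.0198, limma adjusted p = 2.1e-05). At 25 µg/ml SRSF6 stood at 104.9 and 109.1 FPKM at 24 h, against 125.6 and 127.85 FPKM at 6 h, and in untreated cells at 108.4 and 111.5 FPKM at 24 h, against 136.5 and 139.9 FPKM at 6 h. SRSF1 fell by 0.24 (SE 0.0183, adjusted p = 2.85e-05), RBMX by 0.25 (SE 0.0223, adjusted p = 7.32e-05) and SRSF10, an SR protein that represses splicing when dephosphorylated, by 0.23 (SE 0.0215, adjusted p = 8.62e-05). CLK3 rose by 0.21 (SE 0.0330, adjusted p = 0.00145), SRRM1 by 0.20 (SE 0.0403, adjusted p = 0.00452) and SRSF4 by 0.11 (SE 0.0244, adjusted p = 0.00724). After the correction for GC content and length 24 of the 47 genes fell, against 17.5% of all genes, and 4 rose, against 19%. The calls of SRSF4 (0.09, adjusted p = 0.153), LUC7L2 (-0.04, adjusted p = 0.0771) and LUC7L3 (-0.12, adjusted p = 0.0578) were lost, and the 24 genes that fell were among the 26. LUC7L2 lost its call under 21 of 28 alternatives run. Within lane 4 SRSF4 (0.10, adjusted p = 0.0842) and CLK3 (0.18, adjusted p = 0.0651) did not pass. Beside these genes, CD79A fell between 24 and 6 h (by 0.21, SE 0.0346, adjusted p = 0.00162), and of the 11 T cell markers CD2 and ZAP70 fell and CD3E rose. The part of these markers was not tested. Leaving out single libraries gave 27 to 33 calls, and 27 of the 29 genes kept their calls with each library left out. Within lane 4, which held replicate 1 of each 6 h group, 22 fell and 1 rose. Of the 24 genes that fell at 25 µg/ml at 24 h and the 26 that fell between 24 and 6 h, 15 were the same. That is 62.5% of the 24, against 55.3% of all 47 genes that fell between 24 and 6 h. It is 57.7% of the 26, against 51.1% of all 47 that fell at 25 µg/ml at 24 h. These shares are close, and the 25 µg/ml libraries at 24 h are in both comparisons.

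The difference between 24 and 6 h was also taken at each dose. Its median over the 47 genes was -0.02 for 0 µg/ml, -0.12 for 12.5 µg/ml and -0.16 for 25 µg/ml, against -0.02, -0.01 and 0.01 over all genes tested. It was below 0 in 28, 40 and 39 of the 47 genes, and lower at 25 than at 0 µg/ml in 38. The shares over all genes for these counts are not given here. HNRNPH1 stood at -0.38, -0.55 and -0.61 at 0, 12.5 and 25 µg/ml, HNRNPR at 0.02, -0.20 and -0.36, and SRSF1 at -0.07, -0.23 and -0.42. SRSF6 had the reverse order, at -0.33, -0.27 and -0.24, and CLK2 was at -0.27, -0.21 and -0.16. CLK3 stood at 0.14, 0.19 and 0.30. These values describe groups of 2 libraries, and of their differences between doses the one between 25 and 0 µg/ml is what the interaction tested.

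**Figure D4:**
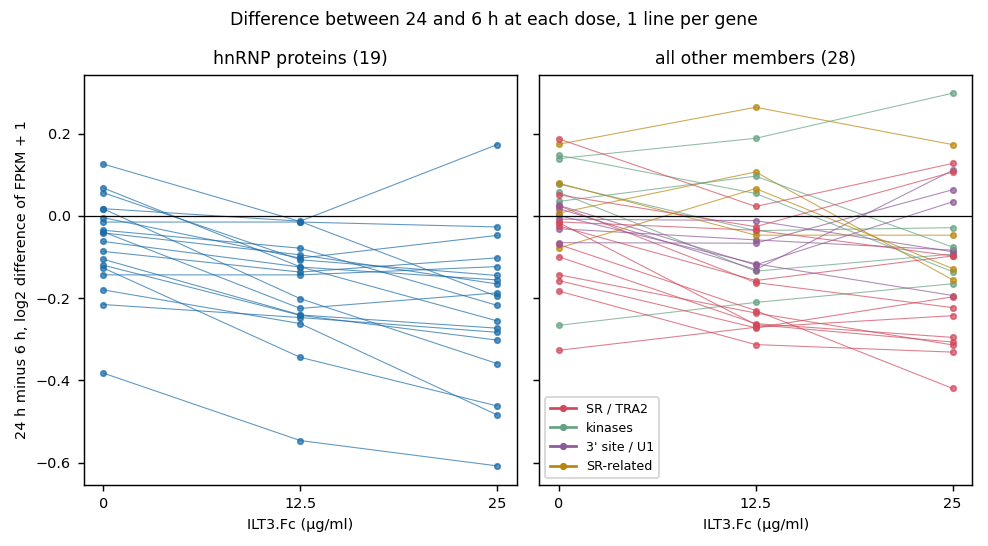
Difference between 24 and 6 h on the log2(FPKM + 1) scale (vertical axis) at 0, 12.5 and 25 µg/ml (horizontal axis), with 1 line for each of the 19 hnRNP genes on the left and each of the 28 other genes on the right, coloured by role. HNRNPH1 is the lowest line, at -0.38, -0.55 and -0.61, and CLK3 the highest at 25 µg/ml, at 0.30.

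Between 12 and 6 h 6 of the 47 genes fell (HNRNPH1, SRSF3, SRSF6, SRSF7, SRSF10 and PTBP1) and 3 rose (SRSF11, RBM39 and LUC7L), against 1.87% and 1.16% of all genes tested. HNRNPH1 fell by 0.16 (SE 0.0211, limma adjusted p = 0.00446), SRSF7, an SR protein that also takes part in export, by 0.20 (SE 0.0319, adjusted p = 0.0108), SRSF10 by 0.14 (SE 0.0232, adjusted p = 0.0117) and SRSF6 by 0.13 (SE 0.0214, adjusted p = 0.0142). RBM39 rose by 0.13 (SE 0.0228, adjusted p = 0.0146) and SRSF11 by 0.12 (SE 0.0260, adjusted p = 0.0339). The 6 genes that fell were all among the 26 lower at 24 h than at 6 h. All 12 h libraries were in lane 5 and 6 h libraries in both lanes. With lane as a covariate 1 call was left, of HNRNPH1, and within lane 5 alone 0. The count was 24 without replicate 2 and 13 without replicate 1 of 12.5 µg/ml at 6 h, both given without a share over all genes. It was 4 to 6 without any 1 of 12 libraries: both of untreated cells and of 25 µg/ml at 6 h, all 4 treated libraries at 12 h, and both of untreated cells and of 12.5 µg/ml at 24 h.

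The 47 genes together made up a falling share of the summed FPKM at 24 h. At 6 h the share was 1.717% and 1.716% in untreated cells, 1.69% and 1.746% under 12.5 µg/ml, and 1.734% and 1.776% under 25 µg/ml. At 24 h it was 1.662% and 1.673% in untreated cells, 1.577% and 1.607% at 12.5 µg/ml, and 1.514% and 1.502% at 25 µg/ml. At 12 h all 5 libraries lay between 1.669% and 1.719%. The lowest shares of all 17 libraries were thus the 25 µg/ml libraries at 24 h. The hnRNP proteins alone took 0.919% and 0.898% there, against 1.02% and 1.023% in untreated cells at 24 h, and the SR and TRA2 proteins 0.336% and 0.340%, against 0.365% and 0.373%. The sum is weighted by the abundant genes and is given without a test.

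**Figure D5:**
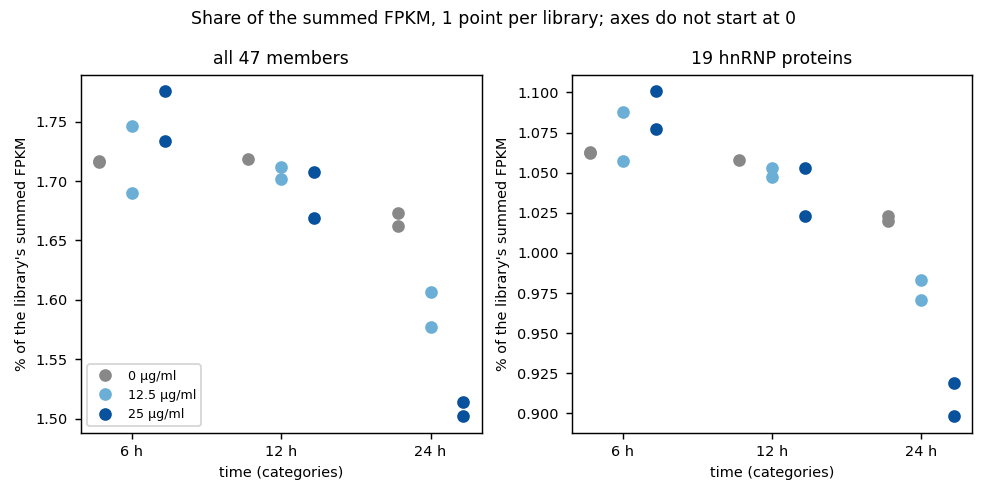
Share of a library's summed FPKM in percent (vertical axis) taken by all 47 genes on the left and by the 19 hnRNP genes on the right, by time (horizontal axis, as categories) and dose (colours), with 1 point for each library and axes that do not start at 0. The 25 µg/ml libraries at 24 h are the lowest, at 1.514% and 1.502% for all 47 genes.

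Other genes of splicing were counted from lists. Over all times 2 of 60 core spliceosome genes fell at 25 µg/ml and 0 rose (3.33% and 0%, against 4% and 5.47% of all genes tested, median -0.01): SF3B3, of the U2 particle (-0.51, SE 0.0203, limma adjusted p = 3e-07), and DHX15, a helicase that takes spliceosomes apart (-0.27, SE 0.0243, adjusted p = 0.000167). At 24 h 6 of the 60 fell and 0 rose (10% and 0%, against 5.76% and 10.7% of all genes, median -0.01), among them SLU7 (-0.17) and CWC22 (-0.18), which act at the catalytic stage. Of 43 other splicing regulators 3 rose and 3 fell over all times (6.98% each, median -0.03), with RBM3, a cold-inducible RNA-binding protein, at 0.22 (SE 0.0296, adjusted p = 0.00181), RBM6 at 0.16 and SYNCRIP, the closest relative of HNRNPR, at -0.11. At 24 h 11 of the 43 fell and 2 rose (25.6% and 4.65%, median -0.07), among them SYNCRIP (-0.31, SE 0.0422, adjusted p = 0.00127), HNRNPUL2 (-0.25), EWSR1 (-0.22) and RBM3 (0.26). Of 10 genes of nonsense-mediated decay, the pathway that clears transcripts with poison exons, 0 passed over all times (median 0.05). At 24 h UPF1, its central helicase, rose by 0.19 (SE 0.049, adjusted p = 0.0229) and UPF2, its adaptor, fell by 0.16 (SE 0.0481, adjusted p = 0.0434). Between 24 and 6 h 17 of the 43 other regulators fell and 4 rose (39.5% and 9.3%, against 13.4% and 11.8% of all genes, median -0.07), with EWSR1 at -0.28 (SE 0.0228, adjusted p = 3.74e-05), while of the 60 core genes 5 fell and 6 rose (8.33% and 10%, median 0.01) and of the 10 decay genes 3 fell and 0 rose (median -0.03).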

How the data were processed

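RNA from Jurkat cells was extracted with an RNeasy Mini kit and sequenced from poly(A)-selected TruSeq libraries, per the labels' protocols. The authors deposited 1 table of FPKM values per gene and library. TopHat2 2.1.0 is named in the submitters' processing notes; the quantifier, genome build, annotation and strand setting were each not given in the sources used here. Of 25593 lines, 45 repeat a symbol, of which only the line of highest mean FPKM was used.

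Values were analysed as log2(FPKM + 1), with a pseudocount of 1, for the 12015 genes with a mean of at least 1 FPKM. limma 3.58.1 in R 4.3.3 was run with 1 mean for each of 9 dose and time groups, an intensity trend, 8 residual and 3 prior degrees of freedom, and 2-sided tests with Benjamini-Hochberg adjustment. A comparison over all times is the mean of the comparisons at 6, 12 and 24 h. Fits were tested on simulated data. The absolute depth is unknown.

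The 47 genes and the lists of core spliceosome, other splicing regulator, nonsense-mediated decay and marker genes were chosen with earlier results of these data known. Genes named with full values are those called over all times by smallest p, up to 6 per other comparison, and the extremes of each role; RBMX, SRSF6 and CLK2 by dose, U2AF1, PTBP1, the kinases that did not pass and the losses after correction were chosen after their values were seen. Alternatives were a pseudocount of 0.1, no filter, a filter at 5 FPKM, median centring, quantile normalization, lane as a covariate, each lane alone, a replicate block, omission of the 12 h libraries and of each library. Omission of the 24 h libraries and a loess correction (span 0.3) for GC content and length of the longest GENCODE transcript, possible for 85% of the genes tested and all 47, were added after seeing the data. The main fit did not pair samples by replicate number, which at 6 h follows the lane. The values of some genes of the lists are not reported here.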

Additional observations from a re-analysis of the deposited data

Results flagged for a closer look

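The effect of 25 µg/ml against untreated cells differed between 24 and 6 h in 8 of the 47 genes, by limma's test of the difference itself. The effect at 24 h minus that at 6 h was -0.35 on the log2 scale for SRSF1, -0.38 for HNRNPR, -0.32 for HNRNPC, -0.32 for HNRNPA2B1, -0.23 for HNRNPH1, -0.28 for SRPK1, -0.29 for SRSF5 and -0.34 for HNRNPA1. None of the 8 genes kept its call with every one of the 17 libraries left out singly, and SRSF1, SRPK1 and HNRNPA1 passed after the correction for GC content and length.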

How the results depend on the processing

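None of the 84 single-gene results that passed changed direction under the alternatives run. Of their values 1899 stayed on their side of the threshold and 481 lost their call. Among values that did not pass, the correction for GC content and length turned the sign of 5 of the 47 at 24 h, PTBP1 (-0.07) among them. The counts that moved are these. Over all times, 25 µg/ml gave 13 calls against untreated cells, 1 within lane 4, 0 within lane 5, 7 without the 12 h libraries, 2 without the 24 h libraries and 6 to 19 with single libraries left out. The lower dose gave 0 calls, 1 after quantile normalization, 4 after correction for GC content and length, 2 with that correction and a replicate block, and 0 to 6 with single libraries left out. The higher against the lower dose gave 1 call, 0 within either lane or without the 12 h or 24 h libraries, and 0 to 17 with single libraries left out. At 6 h the count was 0, 1 after correction with or without the replicate block, and 0 to 1 with single libraries left out. At 12 h it was 0, 1 without a filter, 1 after correction with or without the block, and 0 to 1 with single libraries left out. At 24 h it was 24, 14 within lane 4, 13 after correction, 12 after correction with the block, and 8 to 27 with single libraries left out. Between 24 and 6 h it was 29, and 27 to 33 with single libraries left out. Between 12 and 6 h it was 9, 1 with lane as a covariate, 0 within lane 5, 4 without the 24 h libraries, and 4 to 24 with single libraries left out. The interaction gave 8, 5 without a filter, 0 within lane 4 or without the 12 h libraries, 5 with the replicate block, 5 after correction, 4 after correction with the block, and 0 to 16 with single libraries left out. The cause of these moves was not tested. No shares over all genes are given for the counts with libraries left out, so those counts do not set the 47 genes apart. Within 1 lane, or without a time, fewer samples enter, and a comparison over all times covers fewer times.

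The replicate block otherwise gave 11 calls over all times, 24 at 24 h, 28 between 24 and 6 h and 6 between 12 and 6 h. Correlations between the replicate differences of 28 pairs of groups lay between -0.183 and 0.128, with 2 above 0.1. Such low values cannot exclude that samples were paired, and at 6 h the replicate number follows the lane. HNRNPH3, SRPK1, SRSF1 and HNRNPM at 24 h kept their calls under every alternative run. Absolute depth is unknown, each group holds 1 or 2 libraries, and the median SD between duplicates over the 47 genes was 0.0401 on the log2 scale, which limits the differences that can be called. Isoforms were not measured.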
